A study of Mus musculus with 12 samples.

Results

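The genes of the TNF and IL-1 cytokines and of the feedback on NF-kB were followed in RNA from mouse colon with chemically induced colitis. The 10 genes Tnf, Il1a, Il1b, Il1rn, Il1r1, Il6, Ptgs2, Tnfaip3, Nfkbia and Nfkbiz were taken by symbol from a table of 55335 genes, and each symbol matched 1 row. The 12 libraries fall into 4 groups of 3: TNBS with thymopentin, TNBS with normal saline, DSS with thymopentin, and DSS with normal saline. TNBS is a hapten that makes colon proteins a target of T cells, DSS is a sulfated polymer that damages the colon epithelium, and thymopentin is a synthetic pentapeptide derived from the thymic protein thymopoietin. All mice were wild type and all had colitis, so every comparison is within diseased tissue, and colon without colitis was not analysed here. The labels give neither strain, age, sex, dose nor time. They do not say whether the 3 libraries of a group came from separate animals, so the p-values measure the spread between these libraries.

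TNF and IL-1 are early cytokines of inflammation, made largely by macrophages and other myeloid cells. Their receptors signal through adaptor proteins to the IkB kinase complex, which marks the inhibitor IkB-alpha for destruction and lets NF-kB enter the nucleus. NF-kB then drives chemokines, cytokines, Ptgs2 (cyclooxygenase 2) and its own inhibitors. Nfkbia encodes IkB-alpha itself, Tnfaip3 encodes A20, an enzyme that edits ubiquitin chains and dampens the pathway, and Nfkbiz encodes IkB-zeta, a nuclear protein needed for a second wave of target genes. Il1rn encodes a secreted antagonist that occupies the receptor Il1r1 without signalling. Antibodies against TNF are used to treat inflammatory bowel disease.

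The promoters of 4 of these genes are shown because their RNA was called differently below. Tnf was called lower with thymopentin in both models and Il1b in DSS colitis, while no thymopentin comparison called Tnfaip3 or Nfkbia, both inhibitors of the pathway. The 4 were picked by these outcomes, so no link between motif and response is drawn from them. Each sequence is the 250 bases before the annotated start, 5′ to 3′ on the gene's strand, from RefSeq on GRCm38.p6. Capitals mark the NF-kB consensus, searched on both strands, and the letters TATAAA, also searched on both strands. They lie at chr17:35202008-35202257 (Tnf), chr2:129371140-129371389 (Il1b), chr10:19015411-19015660 (Tnfaip3) and chr12:55492648-55492897 (Nfkbia), each on the minus strand.
Tnf: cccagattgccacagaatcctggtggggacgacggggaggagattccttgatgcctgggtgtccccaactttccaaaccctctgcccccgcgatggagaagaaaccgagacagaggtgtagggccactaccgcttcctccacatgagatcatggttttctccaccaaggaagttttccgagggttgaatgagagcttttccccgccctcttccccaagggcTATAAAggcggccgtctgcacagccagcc
Il1b: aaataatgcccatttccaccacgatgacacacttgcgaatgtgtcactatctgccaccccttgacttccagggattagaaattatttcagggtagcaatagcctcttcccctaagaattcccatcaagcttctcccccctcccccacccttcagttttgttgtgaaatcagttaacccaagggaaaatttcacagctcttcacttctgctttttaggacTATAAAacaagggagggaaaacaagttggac
Tnfaip3: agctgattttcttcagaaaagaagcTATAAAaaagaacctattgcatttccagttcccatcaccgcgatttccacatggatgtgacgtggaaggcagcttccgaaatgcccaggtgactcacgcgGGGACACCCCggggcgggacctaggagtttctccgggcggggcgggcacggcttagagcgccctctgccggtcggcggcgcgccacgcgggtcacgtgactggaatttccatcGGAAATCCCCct
Nfkbia: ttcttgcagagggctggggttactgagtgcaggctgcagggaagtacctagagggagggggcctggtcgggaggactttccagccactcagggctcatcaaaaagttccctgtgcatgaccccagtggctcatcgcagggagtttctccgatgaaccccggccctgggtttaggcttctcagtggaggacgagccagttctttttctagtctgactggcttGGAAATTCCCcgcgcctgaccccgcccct
In these windows Tnf held TATAAA at bases -29 to -24 before the start and Il1b at -31 to -26, and neither held the NF-kB consensus. Nfkbia held the consensus at -29 to -20, and Tnfaip3 held it at -125 to -116, where both strands matched the same bases, and again at -12 to -3. Tnfaip3 also held TATAAA, at -225 to -220. Another promoter listed for Tnfaip3, at chr10:19011964-19012213, held neither the consensus nor TATAAA and is not shown. Among the other genes, the consensus was held by Il6 (-44 to -35) and by 1 promoter of Il1r1 (-232 to -223), and TATAAA by Il1a (-32 to -27). The mean of Il6 was lower with thymopentin in both models, near the limit of detection, and Il1r1 was called in neither. Of 13 promoters listed for 9 of the 10 genes, 4 (30.8%) held the consensus and 4 (30.8%) held TATAAA. Of all 32851 promoters of the same length, 7.25% held the consensus and 12.4% held TATAAA. Nfkbiz had no entry and is named only. A match describes letters in this window and is not a measured binding site.

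Levels are given as FPKM, fragments scaled to transcript length and library size. Each library summed to between 384431 and 532510 FPKM, and the number of genes at 1 FPKM or more ran from 13160 to 13805. The epithelial marker Krt20 lay between 298 and 846 FPKM in all 12 libraries, and Cdx2, Muc2, Car1 and Slc26a3 were detected in every one. TNBS saline 3 was the highest of the 3 TNBS saline libraries for 5 of the 10 genes (Tnf, Il1r1, Tnfaip3, Nfkbia and Nfkbiz). It was the lowest for 4 (Il1a, Il1b, Il1rn and Il6). TNBS saline 2 was as often at an extreme, the highest for Il1a, Il1b, Il1rn, Il6 and Ptgs2 and the lowest for Tnf, Tnfaip3, Nfkbia and Nfkbiz. TNBS saline 3 held 82.0 FPKM summed over 12 macrophage and monocyte markers, against 161 and 213 in TNBS saline 1 and 2. TNBS thymopentin 3 was low in these markers as well, at 79.2 FPKM, against 151 and 162 in TNBS thymopentin 1 and 2.

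Among the 10 genes, the 2 cytokines Tnf and Il1b carried the clearest difference between thymopentin and saline. Tnf, the founding ligand of its family, was lower with thymopentin in both models, and Il1b, the secreted form of IL-1, was called lower in DSS colitis and over both models together. None of the 10 genes was called higher with thymopentin in either model. A gene is called where limma gave an adjusted p under 0.05 over all 13794 genes tested on log2(FPKM + 1), a scale that understates the change of genes with low FPKM. In TNBS colitis 1 of the 8 genes tested was called, and lower, against 0.667% of all genes, with 0.384% called lower, and in DSS colitis 2 of 8, both lower, against 17% of all genes, with 4.3% called lower. Averaged over both models, 2 of 8 were called, both lower, against 8.66% of all genes, with 6.71% called higher and 1.94% called lower. At an unadjusted p under 0.05 stood 5 of the 8 in TNBS colitis, against 12.7% of all genes, 3 of 8 in DSS colitis, against 33.8%, and 3 of 8 over both models, against 27.3%. Il1a and Il6 averaged under 1 FPKM over the 12 libraries and were not tested.

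The balance of higher and lower calls over all genes depended on how the libraries were scaled, while the number of the 10 genes called in each of these comparisons was the same, all lower, under either rescaling. In DSS colitis 1753 genes were called higher with thymopentin and 593 lower, against 1030 and 865 with quantile normalization and 867 and 873 with median-ratio rescaling. Over both models the split was 926 higher and 268 lower, against 474 and 342 (quantile) and 315 and 364 (median-ratio). In TNBS colitis it was 39 and 53, against 32 and 59 (quantile) and 31 and 67 (median-ratio).

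**Figure D1:**
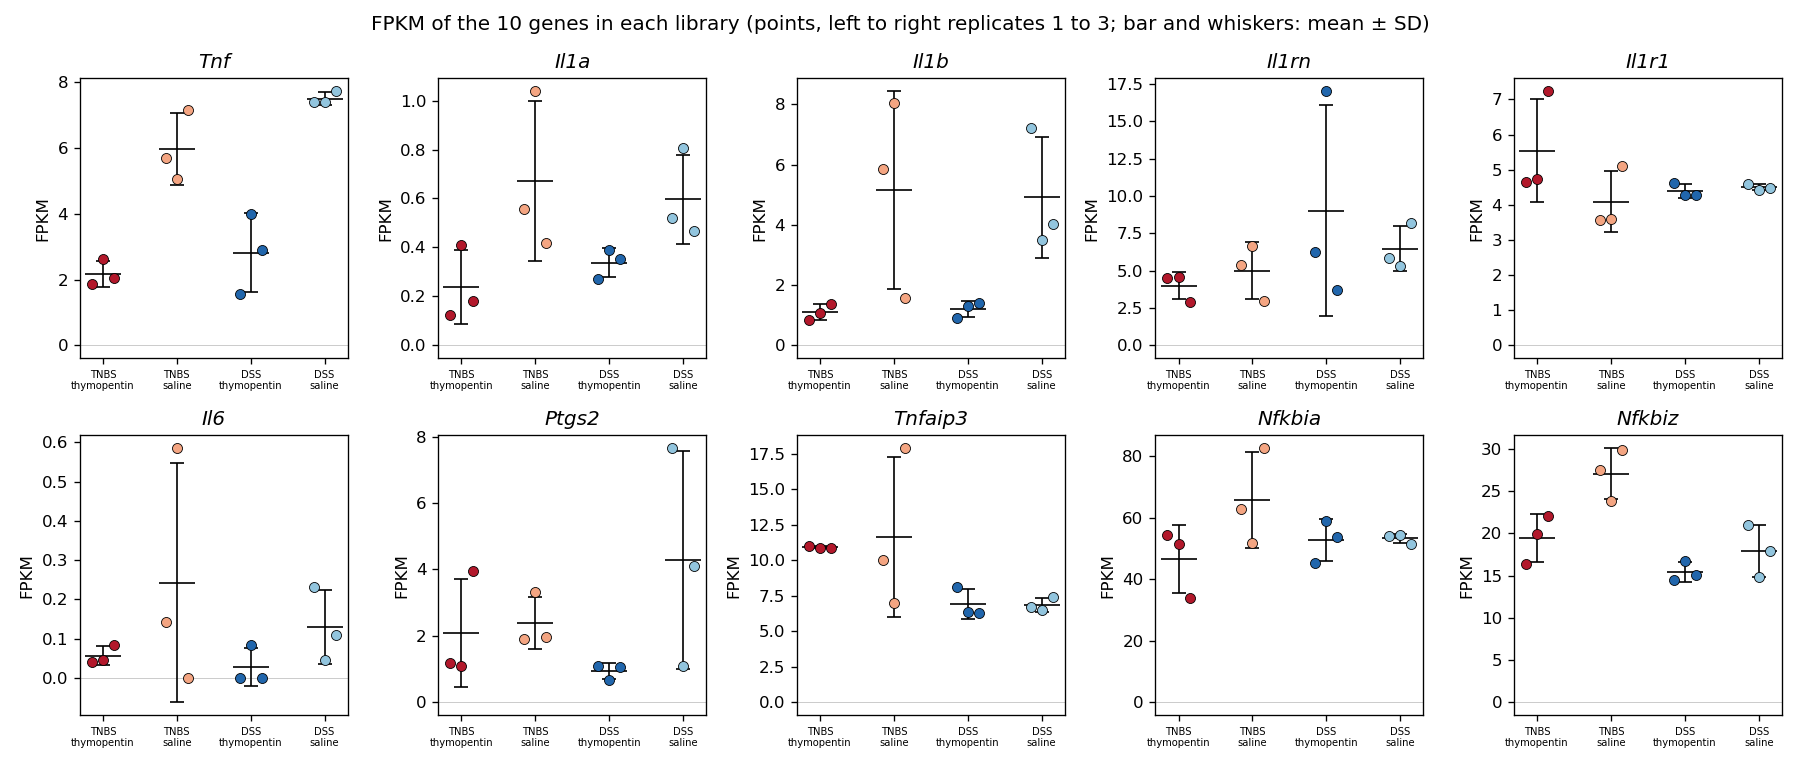
FPKM of each of the 10 genes in each of the 12 libraries, by group, with the mean (bar) and SD (whiskers) of 3 libraries; every panel has its own linear axis that includes 0. Tnf, Il1a and Il1b were lower in every thymopentin library than in every saline library of the same model, whereas Il1r1 in DSS colitis lay between 4.28 and 4.63 FPKM in all 6 libraries.

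In TNBS colitis Tnf stood at 1.87, 2.62 and 2.05 FPKM with thymopentin, against 5.71, 5.05 and 7.17 FPKM with saline. Every thymopentin library was below every saline library. The means were 2.18 ± 0.394 FPKM with thymopentin and 5.98 ± 1.09 FPKM with saline (SD, n = 3 each), 2.74-fold lower with thymopentin. On the log2(FPKM + 1) scale the difference was -1.13 ± 0.21 (SE, limma adjusted p = 0.0461). These levels rested on 128, 168 and 134 reads with thymopentin and 402, 307 and 526 reads with saline, as recovered from the authors' deposited table. The adjusted p was close to the threshold, and the call was lost with the replicate number as a block (0.0916), without the expression filter (0.102), on the TNBS libraries alone (0.0909) and without any 1 library other than DSS thymopentin 1 or DSS thymopentin 2 (up to 0.151). Same-numbered TNBS libraries deviated together (each r over 0.1), although TNBS thymopentin 1 correlated more with TNBS saline 2 (0.287) than with TNBS saline 1 (0.124). The reported fit did not pair the replicate numbers, and only the replicate block did.

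In DSS colitis Tnf stood at 1.57, 3.99 and 2.90 FPKM with thymopentin, against 7.39, 7.39 and 7.73 FPKM with saline. The DSS saline libraries lay close together, with an SD of 2.65% of their mean, and the thymopentin libraries were spread over a wider range, with an SD of 42.9% of their mean. Means were 2.82 ± 1.21 FPKM with thymopentin and 7.51 ± 0.199 FPKM with saline (SD, n = 3 each), 2.66-fold lower with thymopentin. The log2 difference was -1.20 ± 0.21 (SE, limma adjusted p = 0.00585). It passed the threshold under each of the 20 alternatives in which Tnf could be tested, with adjusted p up to 0.0260. Read counts were 99, 212 and 192 with thymopentin and 505, 468 and 488 with saline.

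The Tnf response was not called different between the models. The difference of the 2 responses, DSS minus TNBS, was -0.07 on the log2 scale, with a 95% interval of -0.73 to 0.58 (limma adjusted p = 0.918). Averaged over both models the log2 difference was -1.17 ± 0.15 (SE, limma adjusted p = 0.00311). The group means ordered as DSS saline, TNBS saline, DSS thymopentin and TNBS thymopentin. Neighbours within a treatment were not called apart, with limma adjusted p of 0.269 under saline and 0.453 under thymopentin. In the authors' deposited table Tnf had a log2 fold change of -1.51 in TNBS (FDR 6.44e-09) and -1.63 in DSS (FDR 7.75e-07).

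Il1a, the IL-1 ligand that is active without cleavage and is released by damaged cells, was scarce. It read 0.124, 0.409 and 0.179 FPKM with thymopentin in TNBS colitis, against 0.556, 1.04 and 0.416 FPKM with saline. The DSS libraries read 0.272, 0.389 and 0.351 FPKM with thymopentin, against 0.522, 0.805 and 0.466 FPKM with saline. Within each model no thymopentin library reached the lowest saline library. The TNBS values rested on 11, 32 and 15 reads with thymopentin, against 48, 76 and 37 reads with saline. Without the expression filter the log2 differences were -0.42 in TNBS (limma adjusted p = 0.366) and -0.25 in DSS (limma adjusted p = 0.376), so neither was called. In the authors' deposited table Il1a was at -1.51 (log2 fold change) in TNBS, FDR 0.138.

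Il1b is made as an inactive precursor that inflammasomes cut into the secreted cytokine. In DSS colitis it stood at 0.911, 1.30 and 1.40 FPKM with thymopentin, against 7.21, 3.49 and 4.04 FPKM with saline. All 3 thymopentin libraries were below the lowest saline library. Means were 1.20 ± 0.257 FPKM with thymopentin and 4.92 ± 2.0 FPKM with saline (SD, n = 3 each), 4.09-fold lower with thymopentin, and the log2 difference was -1.38 ± 0.39 (SE, limma adjusted p = 0.0380). Read counts were 68, 81 and 108 with thymopentin and 573, 258 and 298 with saline. The call was lost without the expression filter (adjusted p = 0.0844) and with the replicate block (0.0673). It was also lost without DSS saline 1 or 3, any 1 DSS thymopentin library, TNBS saline 1, or TNBS thymopentin 1 or 2 (up to 0.115).

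In TNBS colitis Il1b stood at 0.851, 1.06 and 1.39 FPKM with thymopentin, against 5.85, 8.04 and 1.58 FPKM with saline. The groups did not overlap, but TNBS saline 3 lay near the thymopentin libraries and far from the other saline libraries. Means were 1.10 ± 0.269 FPKM with thymopentin and 5.16 ± 3.28 FPKM with saline (SD, n = 3 each), and the log2 difference of -1.38 ± 0.39 (SE) was not called (limma adjusted p = 0.167). Without TNBS saline 3 the log2 difference was -1.91 (limma adjusted p = 0.0125). Read counts were 69, 80 and 107 with thymopentin and 480, 568 and 136 with saline. Over both models together Il1b was called lower, with a log2 difference of -1.38 ± 0.28 (SE, limma adjusted p = 0.0177), a call lost without TNBS saline 1 (0.0520). The 2 responses differed by -0.0034 on the log2 scale, with a 95% interval of -1.23 to 1.23 (limma adjusted p = 0.998). The authors' deposited table listed Il1b at -1.99 in TNBS (FDR 0.000358) and -2.09 in DSS (FDR 4.90e-10).

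Of 11 neutrophil markers, only S100a8 and S100a9 were abundant enough to test. S100a8 averaged 0.128 (TNBS) and 0.105 FPKM (DSS) with thymopentin, against 2.241 and 2.631 FPKM with saline. S100a9 averaged 0.314 and 0 FPKM with thymopentin, against 2.655 and 3.234 FPKM with saline. Both passed the filter only through the saline groups, so a lower call is not independent of how they entered the test. Both were called lower in DSS colitis (limma adjusted p = 0.00766 and 0.00689) and neither in TNBS colitis, where both had an unadjusted p under 0.05 and both were called without TNBS saline 3. Summed over the 11, TNBS libraries held 1.28, 0.775 and 0.236 FPKM with thymopentin, against 7.40, 9.85 and 2.18 FPKM with saline. DSS libraries held 1.0, 1.47 and 1.11 FPKM with thymopentin, against 8.94, 7.59 and 12.8 FPKM with saline. The groups did not overlap in either model, and TNBS saline 3, which was low in Il1b, was also the lowest saline library in these markers. S100a8 and S100a9 made up most of each saline sum, while the granule markers Mpo and Elane were listed at 0 or below 0.12 FPKM in all 12 libraries. Macrophage and monocyte markers summed to 288, 340 and 318 FPKM with thymopentin in DSS colitis, against 382, 527 and 438 FPKM with saline. Of these 12 markers 2 were called lower (Mrc1 and Ccr2), against 4.3% of all genes. Both calls were lost at pseudocount 0.1, without the expression filter and without 1 of several libraries (limma adjusted p up to 0.138 and 0.191). In TNBS colitis the 12 markers summed to 79.2 to 162 FPKM with thymopentin, against 82.0 to 213 FPKM with saline. None of the 12 was called there, with 2 at an unadjusted p under 0.05, against 12.7% of all genes. In tissue RNA, fewer cells of a type and less RNA per cell cannot be told apart, and the part of these cells in the Tnf and Il1b results was not tested.

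**Figure D2:**
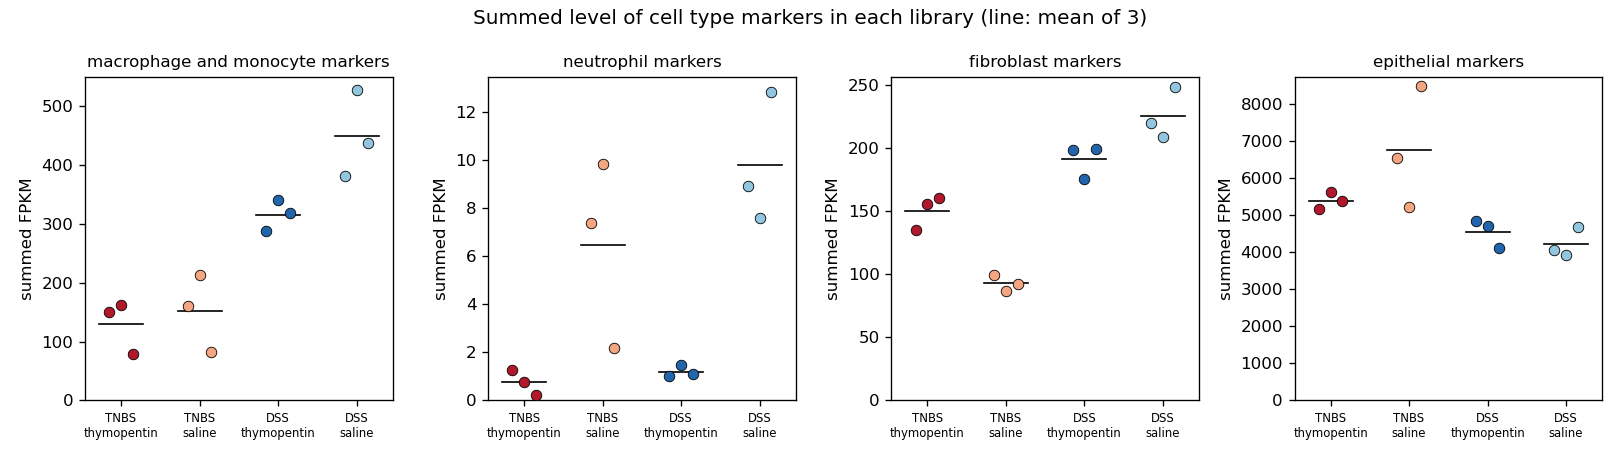
Summed FPKM of marker genes in each library (points) with the mean of 3 (line), on linear axes from 0, for 12 macrophage and monocyte, 11 neutrophil, 9 fibroblast and 10 epithelial markers. Neutrophil sums were 0.236 to 1.47 FPKM with thymopentin and 2.18 to 12.8 FPKM with saline, and macrophage sums were higher in every DSS library than in every TNBS library.

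Il6, the cytokine that drives acute-phase genes and is itself induced by NF-kB, was near the limit of detection. It read 0.0400, 0.0459 and 0.0842 FPKM with thymopentin in TNBS colitis, against 0.144, 0.585 and 0 FPKM with saline. The DSS libraries read 0, 0.0835 and 0 FPKM with thymopentin, against 0.232, 0.0464 and 0.108 FPKM with saline. The groups overlapped in both models. The DSS values rested on 0, 7 and 0 reads with thymopentin and 24, 5 and 11 reads with saline, and a count of 0 allows up to 3 reads. Without the expression filter the log2 differences were -0.21 in TNBS (limma adjusted p = 0.719) and -0.13 in DSS (limma adjusted p = 0.655), so neither was called. The 1 FPKM added before the logarithm shrinks differences at these levels. At pseudocount 0.1 they were -0.72 in TNBS (limma adjusted p = 0.758) and -0.82 in DSS (limma adjusted p = 0.485). In the authors' deposited table Il6 was at -2.61 (log2 fold change) in DSS, FDR 0.216.

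The receptor antagonist Il1rn was not called with thymopentin in either model. Among the TNBS saline libraries it ranked as Il1b did, highest in TNBS saline 2 and lowest in TNBS saline 3. With thymopentin it read 4.48, 4.60 and 2.93 FPKM in TNBS colitis, against 5.38, 6.68 and 2.96 FPKM with saline. The DSS libraries read 6.26, 17.0 and 3.73 FPKM with thymopentin, against 5.88, 5.32 and 8.17 FPKM with saline. The groups overlapped in both models, and DSS thymopentin 2 held the most Il1rn of all 12 libraries. The log2 difference was -0.23 ± 0.42 in TNBS (SE, limma adjusted p = 0.886) and 0.21 ± 0.42 in DSS (SE, limma adjusted p = 0.762), with 95% intervals of -1.16 to 0.71 and -0.72 to 1.15. Without DSS thymopentin 2 the DSS value was -0.33, so its direction rested on that library. The TNBS value was -0.50 without TNBS saline 3 (limma adjusted p = 0.693) and -0.06 without TNBS thymopentin 3.

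Set against Il1b in the same library, Il1rn stood higher with thymopentin. The ratio of Il1rn to Il1b FPKM was 5.26, 4.32 and 2.12 with thymopentin in TNBS colitis, against 0.919, 0.831 and 1.87 with saline. It was 6.88, 13.1 and 2.67 with thymopentin in DSS colitis, against 0.816, 1.52 and 2.02 with saline. Neither model showed overlap between thymopentin and saline libraries. Il1b alone showed no overlap in either model, whereas Il1rn overlapped in both, so the separation of the ratio largely restates that of Il1b. The mean ratio was 3.90 ± 1.62 with thymopentin and 1.21 ± 0.576 with saline in TNBS colitis, and 7.55 ± 5.24 with thymopentin and 1.45 ± 0.605 with saline in DSS colitis (SD, n = 3 each). This ratio was chosen after its values had been seen, and it carries no test.

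**Figure D3:**
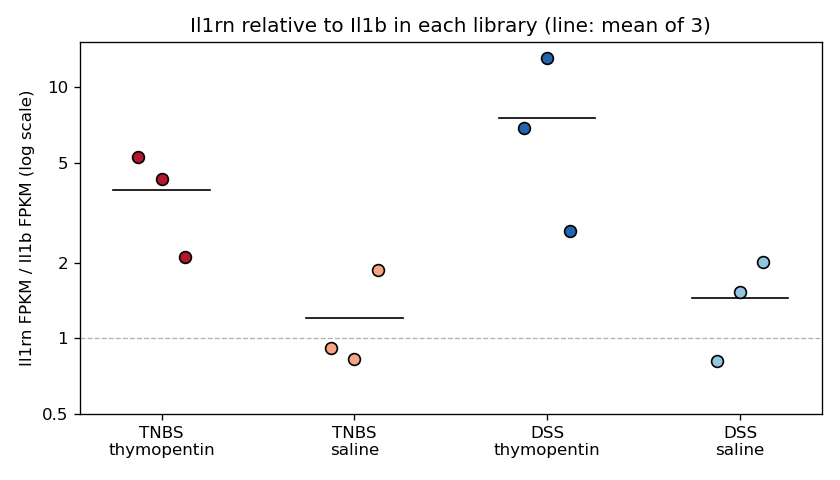
Ratio of Il1rn FPKM to Il1b FPKM in each library (points, log axis) with the mean of 3 libraries (line) by group; the dashed line marks a ratio of 1. The thymopentin libraries lay between 2.12 and 13.1 and the saline libraries between 0.816 and 2.02.

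Il1r1, the signalling receptor that both IL-1 ligands share, was steady in DSS colitis, at 4.63, 4.29 and 4.28 FPKM with thymopentin, against 4.60, 4.42 and 4.48 FPKM with saline. In TNBS colitis it read 4.66, 4.73 and 7.24 FPKM with thymopentin, against 3.57, 3.59 and 5.10 FPKM with saline. In each TNBS group replicate 3 was the highest, and the groups overlapped. The log2 difference was 0.35 ± 0.15 in TNBS (SE, limma adjusted p = 0.369) and -0.03 ± 0.15 in DSS (SE, limma adjusted p = 0.921), with 95% intervals of 0.01 to 0.69 and -0.37 to 0.31. Without TNBS thymopentin 3 the TNBS value was 0.18 (limma adjusted p = 0.723). Fibroblast markers, whose cells carry this receptor among others, were higher with thymopentin in TNBS colitis, summing to 135 to 161 FPKM with thymopentin against 86.9 to 99.2 FPKM with saline. In DSS colitis they summed to 176 to 200 FPKM with thymopentin, against 209 to 248 FPKM with saline. Their part in the Il1r1 values was not tested.

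Ptgs2 makes the prostaglandin precursor in inflamed tissue and varied widely between libraries. In DSS colitis it read 1.09, 0.671 and 1.08 FPKM with thymopentin, against 7.65, 1.09 and 4.11 FPKM with saline. The groups overlapped because DSS saline 2 lay among the thymopentin libraries. The log2 difference was -1.22 ± 0.47 (SE, limma adjusted p = 0.0957), and without DSS saline 2 it was -1.78 (limma adjusted p = 0.0164). Read counts were 192, 100 and 199 with thymopentin and 1460, 193 and 724 with saline, and the authors' deposited table had Ptgs2 at -1.93 (log2 fold change, FDR 0.0285). In TNBS colitis Ptgs2 read 1.20, 1.08 and 3.96 FPKM with thymopentin, against 1.92, 3.31 and 1.97 FPKM with saline. Those groups overlapped, with a log2 difference of -0.24 ± 0.47 (SE, limma adjusted p = 0.892) that ran from -0.64 without TNBS thymopentin 3 to -0.02 without TNBS thymopentin 2.

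The inhibitors of NF-kB showed no called difference between thymopentin and saline. Tnfaip3 read 11, 10.8 and 10.9 FPKM with thymopentin in TNBS colitis, against 9.99, 6.97 and 17.9 FPKM with saline. Its thymopentin libraries were nearly equal, with an SD of 0.768% of their mean, whereas the saline SD was 48.5% of the mean. Levels in DSS colitis were 8.13, 6.33 and 6.26 FPKM with thymopentin, against 6.69, 6.50 and 7.42 FPKM with saline. The log2 difference was 0.01 ± 0.24 in TNBS (SE, limma adjusted p = 0.995) and 0.00 ± 0.24 in DSS (SE, limma adjusted p = 0.999), with 95% intervals of -0.53 to 0.55 and -0.54 to 0.54. Both rescalings of the libraries (quantile and median-ratio) turned its sign negative in each model. Leaving out 1 library moved the TNBS value between -0.27 (without TNBS saline 2) and 0.35 (without TNBS saline 3).

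Nfkbia was the most abundant of the 10 genes per unit length. In TNBS colitis it read 54.5, 51.6 and 34.0 FPKM with thymopentin, against 63.0, 51.9 and 82.7 FPKM with saline. The groups overlapped, since TNBS thymopentin 1 lay above TNBS saline 2, and the log2 difference of -0.49 ± 0.20 (SE) was not called (limma adjusted p = 0.331), although its 95% interval, -0.93 to -0.05, lay below 0. The difference was -0.28 without TNBS thymopentin 3 (limma adjusted p = 0.663) and -0.32 without TNBS saline 3 (0.527). Levels in DSS colitis were 45.5, 59.1 and 53.9 FPKM with thymopentin, against 54.0, 54.4 and 51.6 FPKM with saline. The DSS log2 difference was -0.02 ± 0.20 (SE, limma adjusted p = 0.950), with a 95% interval of -0.46 to 0.42.

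Nfkbiz read 16.4, 20.0 and 22.1 FPKM with thymopentin in TNBS colitis, against 27.6, 23.9 and 29.8 FPKM with saline. Every thymopentin library was below every saline library there, and the log2 difference of -0.46 ± 0.14 (SE) was not called (limma adjusted p = 0.201). Levels in DSS colitis were 14.5, 16.8 and 15.1 FPKM with thymopentin, against 21.1, 14.9 and 17.9 FPKM with saline. Those groups overlapped (log2 difference -0.19 ± 0.14 SE, limma adjusted p = 0.378). Averaged over both models the log2 difference was -0.33 ± 0.10 (SE, limma adjusted p = 0.0697).

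**Figure D4:**
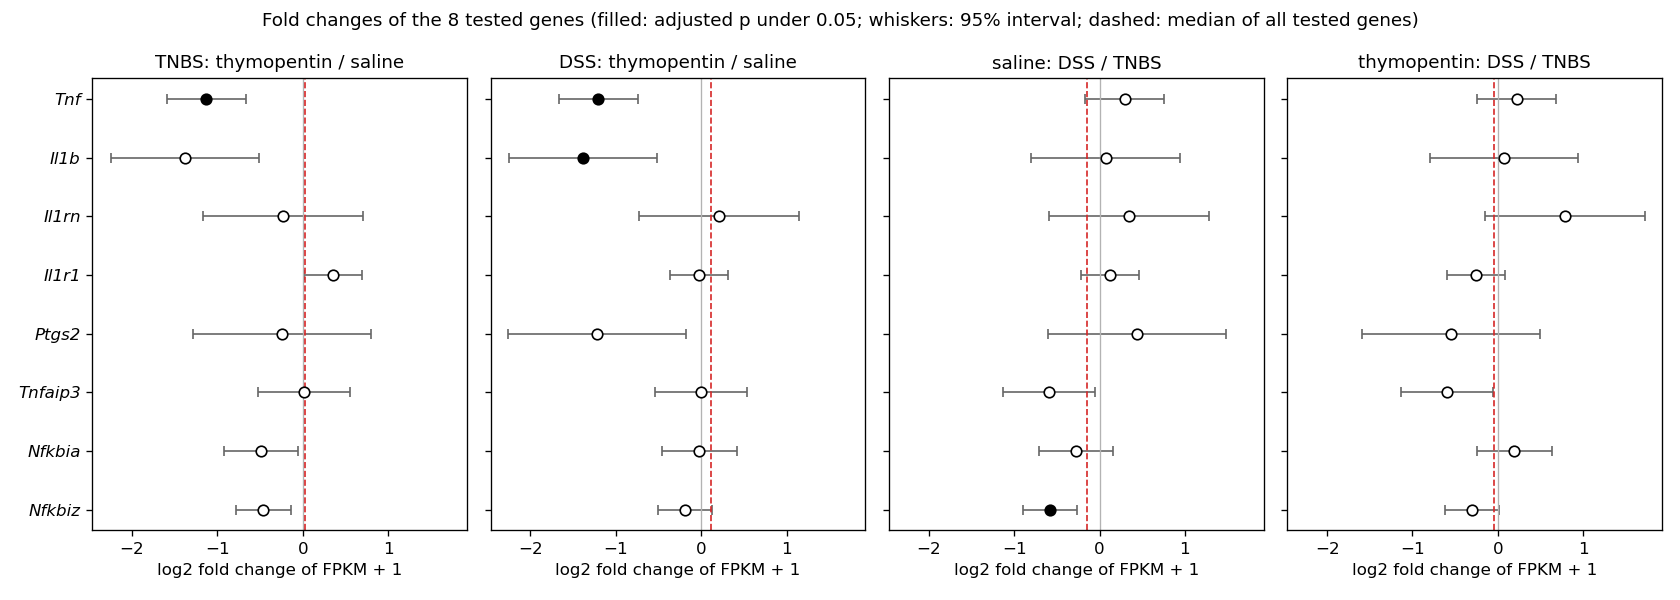
Log2 fold change of FPKM + 1 for the 8 genes tested, with thymopentin over saline in TNBS and in DSS colitis (left panels) and DSS over TNBS under saline and under thymopentin (right panels), with 95% intervals from limma; filled points had an adjusted p under 0.05 and the dashed line is the median of all genes. With thymopentin Tnf lay at -1.13 and -1.20 and Il1b at -1.38 in both models, while the intervals of Tnfaip3 and Il1rn crossed 0 in both.

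Across the 8 tested genes the median log2 difference was -0.35 in TNBS colitis, where the median of all 13794 genes was 0.03, and -0.11 in DSS colitis, where the median of all genes was 0.12. The DSS median of all genes is itself above 0 (0.03 with quantile normalization and 0.01 with median-ratio rescaling), and differences in that model stand relative to it. Complete separation of the groups, every thymopentin library below every saline library, was seen in TNBS for 4 of the 10 genes (Tnf, Il1a, Il1b and Nfkbiz, of which 3 were tested), against 6.75% of all genes. In DSS it was seen for 3 of the 10 (Tnf, Il1a and Il1b, of which 2 were tested), against 11.5% of all genes. No gene of the 10 lay wholly above saline in either model, against 12.1% of all genes in TNBS and 28.3% in DSS. The difference between the responses had an unadjusted p under 0.05 by limma for 0 of the 8, against 22.1% of all genes. It was called for none of the 8, against 5.15% of all genes, with 2.73% called higher in DSS minus TNBS and 2.42% called lower. That split of 376 higher and 334 lower was 250 and 361 with quantile normalization and 277 and 391 with median-ratio rescaling.

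Of 9 tested TNF family ligands and receptors, 2 were called lower in DSS colitis, against 4.3% of all genes. None was called in TNBS colitis, where 2 had an unadjusted p under 0.05, against 12.7% of all genes. In each model 8 of the 9 had a negative log2 difference, with medians of -0.34 in TNBS and -0.38 in DSS, beside 0.03 and 0.12 over all genes. The DSS count was 0 without the expression filter and without DSS thymopentin 1 or 2 or DSS saline 1 or 3. Tnfrsf1a, the main TNF receptor of tissue cells, was 22.7 ± 0.508 FPKM with thymopentin in DSS colitis, against 29.9 ± 3.30 FPKM with saline (log2 difference -0.38 ± 0.10 SE, limma adjusted p = 0.0307). Fas, a death receptor, was 9.16 ± 1.71 FPKM with thymopentin in DSS colitis, against 13.1 ± 1.39 FPKM with saline (log2 difference -0.48 ± 0.14 SE, limma adjusted p = 0.0416). Both calls were lost without the expression filter, with the replicate block, on the DSS libraries alone and without any 1 of several DSS libraries (adjusted p up to 0.0937 and 0.108). Tnfrsf1b, the other TNF receptor, was not called (log2 difference -0.62 ± 0.21 SE, limma adjusted p = 0.0635).

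In the IL-1 family, 4 of 14 listed genes were abundant enough to test. Of these 1 was called lower in DSS colitis, against 4.3% of all genes, and it was Il18bp, the secreted binding protein that neutralises IL-18. It read 4.86, 5.15 and 4.29 FPKM with thymopentin, against 6.46, 7.37 and 9.0 FPKM with saline (log2 difference -0.57 ± 0.14 SE, limma adjusted p = 0.0201). The call was lost with the replicate block, without the expression filter at pseudocount 0.1 and without DSS thymopentin 3 or DSS saline 3 (up to 0.0759). In TNBS colitis it read 1.33, 1.34 and 1.19 FPKM with thymopentin, against 2.18, 2.23 and 3.22 FPKM with saline, which did not overlap and was not called (limma adjusted p = 0.0796). Il1r2, a decoy receptor that binds IL-1 without signalling, was below the filter, at 0.498 ± 0.216 FPKM with thymopentin in DSS colitis, against 1.36 ± 0.242 FPKM with saline. Il1rap, the accessory chain that Il1r1 needs to signal, was also below it, at 0.875 ± 0.0775 FPKM with thymopentin in DSS colitis, against 0.693 ± 0.114 FPKM with saline. The epithelial cytokines Il36a, Il36b and Il36g were listed at 0 in every library outside TNBS saline, where the highest value was 0.501 FPKM.

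None of the 19 adaptors and kinases that link these receptors to NF-kB was called with thymopentin in either model by limma, with 2 in TNBS and 4 in DSS at an unadjusted p under 0.05. The same held for the 5 NF-kB subunits, with none at an unadjusted p under 0.05 in either model. Over all genes 0.667% were called in TNBS and 17% in DSS. At an unadjusted p under 0.05 stood 12.7% of all genes in TNBS and 33.8% in DSS. Rela, the main activating subunit, read 9.36 ± 0.135 FPKM with thymopentin in TNBS colitis, against 9.82 ± 1.10 FPKM with saline. Nfkb1, its usual partner, read 4.25 ± 0.186 FPKM with thymopentin in DSS colitis, against 4.12 ± 0.485 FPKM with saline. For both genes the limma adjusted p was between 0.321 and 0.922 in the 2 models.

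Target genes of NF-kB in inflamed tissue were lower with thymopentin in DSS colitis. Of 22 listed, 14 passed the filter, and 9 of these were called lower in DSS, against 4.3% of all genes. In TNBS 1 was called lower, against 0.384%, and none was called higher in either model. The median log2 difference of the 14 was -1.25 in DSS and -0.30 in TNBS, beside medians of 0.12 and 0.03 over all genes. The 9 were the neutrophil-attracting chemokines Cxcl1 and Cxcl5, the monocyte-attracting chemokines Ccl2 and Ccl7, the iron-sequestering protein Lcn2, the acute-phase protein Saa3, the inducible nitric oxide synthase Nos2, and the TNF-responsive genes Ier3 and Tnfaip2. Without DSS saline 3 the DSS count was 5, and of the 9 only Ccl7, Saa3, Nos2 and Ier3 were called under each alternative in which they could be tested. Neutrophil, macrophage and fibroblast markers lay lower with thymopentin in these same DSS libraries, and their part in this result was not tested.

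Nos2 was the target called in both models. In DSS colitis it read 2.11, 2.16 and 1.97 FPKM with thymopentin, against 14.8, 15.3 and 16.7 FPKM with saline. In TNBS colitis it read 5.39, 8.70 and 4.29 FPKM with thymopentin, against 13.1, 16.9 and 14.1 FPKM with saline. The groups were far apart in both models and the thymopentin level was lower in DSS. The log2 difference was -2.43 ± 0.19 in DSS (SE, limma adjusted p = 0.000119) and -1.18 ± 0.19 in TNBS (SE, limma adjusted p = 0.0212). The TNBS call was lost without the expression filter, on the TNBS libraries alone and without TNBS saline 3, TNBS thymopentin 1 or TNBS thymopentin 3 (adjusted p up to 0.185). Ccl7 read 3.42, 5.33 and 3.82 FPKM with thymopentin in DSS colitis, against 21.9, 8.56 and 10.8 FPKM with saline, and was 0.838 ± 0.131 FPKM with thymopentin in TNBS colitis, against 0.859 ± 0.213 FPKM with saline. Its log2 difference was -1.42 ± 0.27 in DSS (SE, limma adjusted p = 0.00869) and -0.01 ± 0.27 in TNBS (SE, limma adjusted p = 0.995).

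**Figure D5:**
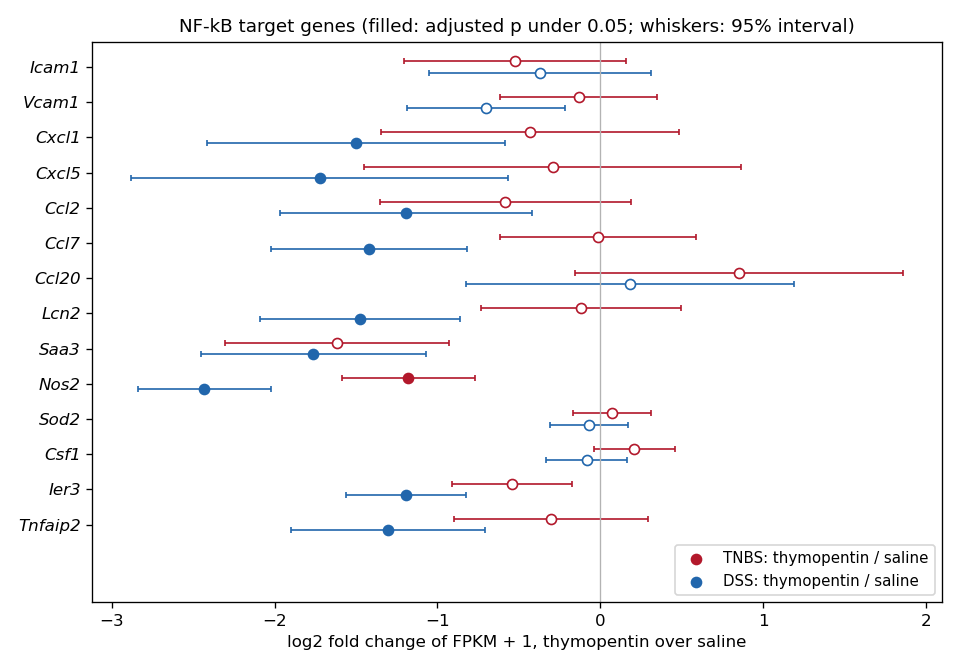
Log2 difference of FPKM + 1, thymopentin over saline, for the 14 tested NF-kB target genes in TNBS (upper point of each pair) and DSS colitis (lower point), with 95% intervals from limma; filled points had an adjusted p under 0.05. In DSS 9 were called, from -1.19 (Ier3) to -2.43 (Nos2), and in TNBS Nos2 was called at -1.18.

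Of 16 further listed regulators of inflammatory signalling, 2 were called lower in DSS colitis, against 4.3% of all genes, and 2 higher, against 12.7%. Their median log2 difference was -0.07, beside 0.12 over all genes. None was called in TNBS colitis, where 4 had an unadjusted p under 0.05 by limma, against 12.7% of all genes. Zc3h12a, a ribonuclease that degrades inflammatory mRNA, read 10.9, 13.6 and 12.5 FPKM with thymopentin in DSS colitis, against 25.7, 20.8 and 25.1 FPKM with saline (log2 difference -0.90 ± 0.13 SE, limma adjusted p = 0.00268). Socs3, an inhibitor of cytokine receptor signalling through STAT3, read 4.27, 7.59 and 7.09 FPKM with thymopentin in DSS colitis, against 48.2, 28.2 and 23.9 FPKM with saline (log2 difference -2.20 ± 0.36 SE, limma adjusted p = 0.00469). For both genes every thymopentin library lay below every saline library. Tnip1, a partner of A20, went the other way, at 29.2, 36.9 and 32.5 FPKM with thymopentin, against 19.1, 22.1 and 18.7 FPKM with saline (log2 difference 0.69 ± 0.13 SE, limma adjusted p = 0.00941). Rnf31, the catalytic subunit of the linear ubiquitin ligase, rose by 0.31 ± 0.09 on the log2 scale in DSS (SE, limma adjusted p = 0.0459). That call was kept under 5 of 21 alternatives. It was lost when any 1 DSS library was left out and with either rescaling of the libraries (up to 0.226). Zfp36, which destabilises Tnf mRNA, read 29.5 ± 1.32 FPKM with thymopentin in DSS colitis, against 49.7 ± 18.4 FPKM with saline, and was not called (limma adjusted p = 0.0639).

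Around Ptgs2, the prostaglandin pathway had 9 tested genes, of which 1 was called in each model, against 0.667% of all genes in TNBS and 17% in DSS. In each model this was Ptgis, prostacyclin synthase, called in opposite directions. It read 2.02, 1.47 and 1.88 FPKM with thymopentin in TNBS colitis, against 0.574, 0.517 and 0.640 FPKM with saline (log2 difference 0.82 ± 0.13 SE, limma adjusted p = 0.0221). In DSS colitis it read 2.36, 1.73 and 2.45 FPKM with thymopentin, against 2.92, 4.05 and 3.76 FPKM with saline (log2 difference -0.52 ± 0.13 SE, limma adjusted p = 0.0235). Both calls were lost with the replicate number as a block, without the expression filter and on the libraries of the model alone. The TNBS call was also lost without TNBS thymopentin 1 or 3 or TNBS saline 1 or 2 (up to 0.102). The DSS call was also lost without DSS thymopentin 2 or DSS saline 2 or 3 (up to 0.0856). Fibroblast markers moved the same way as Ptgis in each model, and their part was not tested. Ptges, which completes prostaglandin E2 synthesis, and Hpgd, which breaks prostaglandins down, were not called in either model (limma adjusted p between 0.116 and 0.784).

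On the receiving side of IL-6, 1 gene of 7 tested was called in DSS colitis, and lower, against 4.3% of all genes called lower. The count was 4 with quantile normalization and 3 with median-ratio rescaling or array weights. The gene called was Osmr, a receptor chain for the related cytokine oncostatin M. It read 1.21, 1.01 and 1.08 FPKM with thymopentin, against 2.73, 2.12 and 2.10 FPKM with saline (log2 difference -0.66 ± 0.10 SE, limma adjusted p = 0.00305). None of the 7 was called in TNBS colitis, with 2 at an unadjusted p under 0.05, against 12.7% of all genes. Il6st, the shared signalling chain, was not called (6.08 ± 0.741 FPKM with thymopentin in DSS colitis, against 9.32 ± 0.515 FPKM with saline, limma adjusted p = 0.132), and Il6ra, the IL-6 binding chain, was below the filter.

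Of 6 tested genes that process cytokines, such as inflammasome parts, none was called with thymopentin in either model by limma, with 2 in TNBS and 4 in DSS at an unadjusted p under 0.05. None of 8 T cell markers was called in either model, with 1 in TNBS and 0 in DSS at an unadjusted p under 0.05, and none of 4 tested endothelial markers was, with 1 and 2. Over all genes 0.667% were called in TNBS and 17% in DSS, and 12.7% and 33.8% had an unadjusted p under 0.05. Of 7 B and plasma cell markers, 1 was called higher in DSS colitis, against 12.7% of all genes. It was Sdc1, by 0.35 ± 0.09 (SE, limma adjusted p = 0.0239). That call was lost with either rescaling, with the replicate block, on the DSS libraries alone and without DSS thymopentin 1 or 2 or DSS saline 1 or 3 (up to 0.174). Fibroblast markers were called higher in TNBS colitis for 3 of 9 (Dcn, Lum and Dpt), against 0.283% of all genes. In DSS colitis 2 of 9 were called lower (Dcn and Lum), against 4.3%. The TNBS count was 1 without any 1 of TNBS thymopentin 1 or 3, the TNBS saline libraries, DSS thymopentin 3 or DSS saline 3. It was also 1 without the expression filter and with median-ratio rescaling, and 0 on the TNBS libraries alone. The DSS count was 1 on the DSS libraries alone and without DSS thymopentin 2 or DSS saline 1 or 3. Smooth muscle markers were called lower in DSS colitis for 3 of 6 (Des, Cnn1 and Tagln), against 4.3% of all genes. Summed over the 6, they held 1241 to 1885 FPKM with thymopentin, against 2856 to 3403 FPKM with saline. The number called was 0 without any 1 DSS thymopentin library or DSS saline 1 or 3, with quantile normalization and without the expression filter. It was 1 without DSS saline 2, TNBS thymopentin 1 or 2 or TNBS saline 1, and 6 on the DSS libraries alone. Among 10 epithelial markers Slc26a3 was called higher in TNBS colitis, against 0.283% of all genes, and Epcam and Cdh1 in DSS colitis, against 12.7%. The other 9 had negative log2 differences in TNBS colitis, with a median of -0.29 over the 10. The Slc26a3 call was lost without the expression filter, on the TNBS libraries alone and without any 1 TNBS saline library (up to 0.122). Those of Epcam and Cdh1 were lost without the filter, with median-ratio rescaling, with the replicate block and on the DSS libraries alone. Both were also lost without DSS thymopentin 1 or 2 or DSS saline 1 (up to 0.131 and 0.178).

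Between the models few of the 10 genes were called. Under saline 1 of the 8 tested genes was called between DSS and TNBS colitis, against 46.6% of all genes. Under thymopentin none was, against 27.5%, with 1 at an unadjusted p under 0.05, against 40.8% of all genes. No test of the share was made. The gene called was Nfkbiz, at 17.9 ± 3.10 FPKM in DSS saline, against 27.1 ± 3.01 FPKM in TNBS saline (SD, n = 3 each). Its log2 difference was -0.58 ± 0.14 (SE, limma adjusted p = 0.00772), beside a median of -0.14 over all genes, and it passed the threshold under all 21 alternatives, up to 0.0386. Tnfaip3 lay on the same side, at 6.87 ± 0.486 FPKM in DSS saline, against 11.6 ± 5.63 FPKM in TNBS saline, and was not called (log2 difference -0.59 ± 0.24 SE, limma adjusted p = 0.0692). Without TNBS saline 2 it was (-0.87, limma adjusted p = 0.0067), and without TNBS saline 3 the difference was -0.25 (0.199). Under thymopentin Tnfaip3 was 6.91 ± 1.06 FPKM in DSS, against 10.9 ± 0.0837 FPKM in TNBS, fully separated and not called (limma adjusted p = 0.0901). It was called on the thymopentin libraries alone (0.0162) and without TNBS saline 2 or 3 (down to 0.00956). Tnf under thymopentin was called higher in DSS without DSS thymopentin 1 (log2 difference 0.48, limma adjusted p = 0.0459).

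Full separation of the saline groups was seen for Tnf, which lay higher in DSS saline, against 18.8% of all genes separated that way, and for Nfkbiz, which lay lower, against 37.7%. Under thymopentin Tnfaip3 and Il1r1 lay wholly lower in DSS, against 27.6% of all genes, and no gene of the 10 lay wholly higher, against 18.7%. The macrophage markers were higher in DSS saline, with 12 of 12 called and sums of 382 to 527 FPKM in DSS saline, against 82.0 to 213 FPKM in TNBS saline. Other cell types differed as well: 7 of 8 T cell, 8 of 9 fibroblast, 5 of 6 smooth muscle and 4 of 4 endothelial markers were called higher in DSS saline, against 15.2% of all genes, and 6 of 10 epithelial markers lower, against 31.5%. Over all genes the split was 2090 higher and 4341 lower in DSS saline, against 2687 and 3316 with median-ratio rescaling. Between the saline groups neither Tnf nor Il1b was called, with log2 differences of 0.30 ± 0.21 and 0.07 ± 0.39 (SE, limma adjusted p = 0.269 and 0.894). The Il1b value was -0.46 without TNBS saline 3. The part of these cell types in the Tnf and Il1b values was not tested. Of the 14 NF-kB targets 7 were called higher in DSS saline and none lower, and of the 19 adaptors and kinases 2 were called higher and 8 lower. The shares over all genes were 15.2% higher and 31.5% lower.

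The genes whose pattern over the 12 libraries was most like that of Tnf or Il1b were found by the root mean square difference of z-scored log2(FPKM + 1), where 0 is identity. For Tnf the 5 nearest were Il4ra (0.397), Wsb1 (0.445), Lif (0.457), Zc3h12a (0.462) and Art2a-ps (0.463). Il4ra, a receptor chain for interleukins 4 and 13, averaged 6.19 ± 1.29 FPKM with thymopentin in TNBS colitis, against 10.9 ± 0.657 FPKM with saline, and 6.07 ± 0.753 FPKM with thymopentin in DSS colitis, against 10.6 ± 0.571 FPKM with saline. For Il1b the 5 nearest were S100a9 (0.369), S100a8 (0.417), Mir6955 (0.482), Klf10 (0.483) and Mmp10 (0.513). S100a9, a calprotectin subunit abundant in neutrophils, was listed at 0 in all 3 DSS thymopentin libraries, against 3.93, 2.24 and 3.54 FPKM in DSS saline. Tnf and Il1b differed from each other by 0.701, and Il1r1 was the farthest of the tested genes here from both, at 1.58 from Tnf and 1.66 from Il1b. All libraries of a group share their treatment, so likeness describes these 12 libraries and no more.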

How the data were processed

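Per the labels, colon total RNA was extracted with TRIzol and made into strand-specific TruSeq libraries. No source used here says whether counting used strand, so overlapping antisense RNA cannot be told apart. The authors deposited FPKM for 55335 genes in 12 libraries; 21126 were at 0 throughout. Tools named without role or order, per the submitters' processing notes, are STAR 2.5, FastQC, DESeq 1.22.1 and Cuffnorm, with the build mm9. Sequences come from GRCm38.p6 and no coordinate was transferred. The authors' deposited tables of selected genes also hold log2 values per library, and for each gene an FDR, a p-value and the log2 fold change. Raised back from log2, all 2765 low TNBS values and 4527 low DSS values, those up to 30 reads, were whole within 0.01 reads after scaling, and reads were taken from them. No source used here gives total reads per library; size factors ran from 0.847 to 1.12.

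limma 3.58.1 in R 4.3.3, with an empirical Bayes trend, was fitted to log2(FPKM + 1) of 13794 genes whose mean reached 1 FPKM, with 4 group means in 1 fit and 8 residual degrees of freedom. Tests were two-sided, with Benjamini-Hochberg adjustment over all tested genes. An exact permutation test of 3 against 3 cannot go below 0.1 and was not used. No count test was run, since reads were recovered for the authors' selected genes alone.

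The 10 genes and the 17 other gene lists were chosen with earlier results of these data known. The rule for named genes takes all 10, each listed gene called in a comparison, the receptors and partners needed to read the 10, and the 5 genes most alike to Tnf and to Il1b, without unnamed gene models. Listed genes called between the models alone are given as counts. Macrophage, neutrophil, T cell, B cell, fibroblast, endothelial, smooth muscle and epithelial markers were summed per library. Of the symbols, 4 were matched through RefSeq synonyms, and 1 listed symbol on 2 rows was taken by its identifier. Same-numbered TNBS libraries deviated from their group means together (r = 0.124, 0.268 and 0.476), although TNBS thymopentin 1 correlated more with TNBS saline 2 (0.287). The reported fit left the replicate numbers unpaired, and the replicate block is the alternative that pairs them. Python 3.11.15, pandas 2.3.3, numpy 2.4.6 and matplotlib 3.10.9 were used, and the fit was checked on simulated data. Alternatives were pseudocount 0.1, no expression filter, a mean FPKM of at least 5, quantile normalization, median-ratio rescaling, array weights (estimated gene by gene, since the restricted maximum likelihood estimate did not converge), the replicate block, only the groups compared, and leaving out each library.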

Additional observations from a re-analysis of the deposited data

Results flagged for a closer look

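For 9 listed genes the response to thymopentin differed between the models, by the test of the difference itself (DSS response minus TNBS response, limma adjusted p over all genes). None was among the 10 cytokine and feedback genes. Over all genes 710 of 13794 (5.15%) were called for this difference, and whether the listed genes exceed that share was not tested. Among pathway genes the log2 difference was -1.25 for Nos2 (adjusted p = 0.0281), which was lower with thymopentin in both models, and -1.34 for Ptgis (0.00716), which was lower in DSS and higher in TNBS. It was 0.78 for Rnf31 (0.0150) and -0.57 for Osmr (0.0441). Among cell type markers it was -1.34 for Dcn (0.00348), -1.30 for Lum (0.00925) and -1.12 for Dpt (0.0281), all fibroblast markers, -0.65 for the macrophage marker Mrc1 (0.0360) and 0.74 for the epithelial marker Epcam (0.0348). Rnf31, Ptgis, Dcn and Lum passed the threshold under every alternative in which they could be tested. Nos2 did so under 15 of 20, Dpt 14 of 20, Mrc1 7 of 19, Epcam 5 of 20 and Osmr 2 of 19.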

How the results depend on the processing

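The Tnf call in DSS colitis, its call over both models and the Nfkbiz call between the saline groups were kept under every alternative in which they could be tested. The number of the 10 genes called in TNBS colitis, 1 in the reported fit, was 0 without the expression filter, with a mean FPKM of at least 5, with the replicate block, on the compared groups alone, and without the filter at pseudocount 0.1 (chosen after seeing the data), and 3 with array weights. In DSS, where 2 were called, it was 1 without the filter, at either pseudocount, and with the replicate block, and 0 at a mean of at least 5, where Tnf and Il1b were not tested. Over both models 2 were called, and 0 at a mean of at least 5. Between the models array weights called 2 under saline (1 reported) and 1 under thymopentin (0 reported), and the compared groups alone 1 under thymopentin. Same-numbered DSS libraries correlated at -0.136, 0.0427 and -0.140 and share only a number; of the 10 genes, the block there moved the Il1b call alone (adjusted p = 0.0673).

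Over all genes, calls in TNBS (92) were 44 without the filter, 1055 with array weights and 6 on the compared groups alone. In DSS (2346) they were 1447 at a mean of at least 5 and 3854 with array weights. For the difference between responses (710) they were 355 without the filter, 402 without it at pseudocount 0.1, 385 at a mean of at least 5 and 2327 with array weights. Over both models (1194) they were 677 without the filter, 742 without it at pseudocount 0.1, 3258 with array weights, 670 with the replicate block and 679 with median-ratio rescaling, which split 315 higher and 364 lower, against 926 and 268 as reported. Between the saline groups (6431) they were 3661 at a mean of at least 5. The causes were not tested, beyond the change in genes tested under a filter and in libraries used.

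With 1 library left out, the number of the 10 genes called ran from 0 to 1 in TNBS, 1 to 3 in DSS, 0 to 0 for the difference, 1 to 4 over both models, 1 to 2 under saline and 0 to 1 under thymopentin. Over all genes the ranges were 41 to 116, 923 to 2505, 176 to 764, 401 to 1435, 5347 to 6434 and 2052 to 3999 in the same order.

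Signs turned mainly for values near 0. Tnfaip3 was -0.0062 (quantile) and -0.047 (median-ratio) in TNBS, -0.12 under both rescalings, -0.091 with array weights and -6.06e-05 at pseudocount 0.1, with or without the filter, in DSS, and -0.064 (quantile) and -0.082 (median-ratio) over both models. Array weights gave Nfkbia 0.041 in DSS, and Il1b 0.47 for the difference and -0.30 between saline groups. Il6 was -0.11 for the difference without the filter at pseudocount 0.1. Leaving out 1 library, Tnfaip3 ran from -0.27 to 0.35 in TNBS, -0.11 to 0.058 in DSS, -0.14 to 0.17 over both models and -0.35 to 0.27 for the difference. Il1rn ran from -0.33 to 0.64 in DSS, -0.28 to 0.20 over both models and -0.10 to 0.86 for the difference. Il1b ran from -0.37 to 0.53 for the difference, -0.46 to 0.44 under saline and -0.018 to 0.17 under thymopentin. Nfkbia ran from -0.11 to 0.080 in DSS and -0.014 to 0.32 under thymopentin. Tnf ran from -0.29 to 0.18 for the difference and Ptgs2 from -0.033 to 0.99 under saline. Low reads limit Il1a and Il6.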
